A study of Mus musculus with 6 samples.

Results

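The JAK, STAT and SOCS genes described here are Jak1, Jak2, Jak3, Stat3, Stat5a, Stat5b, Stat6, Socs1, Socs3 and Cish. They are the rows of the deposited table whose gene name is one of these symbols, 10 of 55421 genes listed, and each symbol matched exactly 1 row. The RNA came from germinal centre B cells of C57BL/6 mice that carry a green fluorescent reporter of AID, the mutator enzyme of these cells. All mice, wildtype and SFR KO alike, carried the reporter and received ovalbumin loaded with the hapten NP at a ratio of 18, in alum. Spleens were taken at day 9 and GFP+ cells were sorted, so the libraries hold the cells that had the reporter on and whatever passed that gate with them. SFR KO mice lack a segment of the genome that starts in intron 1 of Cd244, ends in exon 8 of Slamf6 and includes 7 genes of SLAM family receptors. There were 3 libraries in each group, and no label used here gives the age of the mice. Nor do the labels state whether every sample came from its own mouse. The p-values therefore measure only the spread between these samples, which may be technical.

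Cytokine receptors have no kinase activity of their own and carry Janus kinases (JAKs) on their inner tails. When a cytokine brings receptor chains together, the JAKs phosphorylate STAT proteins, which then pair, enter the nucleus and bind DNA at palindromic sites. Among the genes that STATs switch on are the SOCS genes, whose proteins bind receptors or JAKs and end the signal. In germinal centre B cells, interleukins from follicular helper T cells use this route: interleukin 21 acts largely through STAT3 and interleukin 4 through STAT6, and both share a receptor chain that holds JAK3 beside JAK1.

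The binding sites explain which regulatory sequences are shown. A STAT dimer typically binds TTCNNNGAA, and STAT6 also binds the form whose spacer is 1 base longer. Both motifs read the same on either strand, and both were searched in windows from 250 bases before to 50 bases after each RefSeq start site (build GRCm38.p6). All 10 genes had a window, 12 windows in all. TTCNNNGAA was present in 8.3% and the longer form in 6.95% of all 32851 promoter windows of that length. Of the members' 12 windows, 2 held a match, those of Cish and Socs3, where 14.6% of all windows held either form. All 3 matches were TTCNNNGAA. The sequences are shown because they belong to genes of the feedback group, with the matches in capitals:
Cish, chr9:107296654-107296683, plus strand: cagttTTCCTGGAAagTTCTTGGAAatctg
Socs3, chr11:117969502-117969531, minus strand: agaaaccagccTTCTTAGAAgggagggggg
The Cish matches begin at bases 1 and 12 after the RefSeq start site, and the Socs3 match begins at base -154 relative to its start site. These are matches of letters, with no measurement of binding in these data.

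A further pair of sequences bears on how far the counts can be trusted. Stat5a and Stat5b are neighbouring duplicates with 90.7% identity over 2294 aligned coding bases (GENCODE release M21). Every other pair of members within the STAT, JAK or SOCS group had an identity between 57.9% and 65.6%. The coding sequences of Stat5a and Stat5b share an unbroken run of 324 bases. The end of that run is shown with 45 bases after it, coding bases 865 to 939 of each gene, with the 1 difference in capitals:
Stat5a: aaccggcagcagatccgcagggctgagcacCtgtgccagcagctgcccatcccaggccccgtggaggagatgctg
Stat5b: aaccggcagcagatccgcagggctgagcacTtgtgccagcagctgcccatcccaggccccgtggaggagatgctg
Of all windows of 50 bases along the longest Stat5a transcript, 10.8% occur unchanged in a Stat5b transcript, and of windows of 100 bases 2.85% do. No other pair within a group shared a window of 50 bases. The share of 2.85% is too small to hold the whole run of 324 bases, so it understates what the 2 coding sequences share. Reads from the shared stretches fit either gene, and no source used here says how the counting treated them. The split between Stat5a and Stat5b is therefore uncertain, to an extent that was not measured.

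Before the members, the libraries were checked. They held 28269310 to 33053024 reads. The 7 deleted genes together had 10295 to 22247 reads in wildtype and 5 to 17 reads in SFR KO libraries, as the labels say. All 12 germinal centre B cell markers were measured, with summed levels of 384878 to 397081 normalized reads in wildtype, against 379880 to 398861 in SFR KO libraries. Normalized reads are read counts scaled by the authors to library size. The summed level of 12 T cell markers was 4460 to 4961 in wildtype, against 5047 to 7230 in SFR KO libraries, and Lck alone gave 3797 to 3927 and 3920 to 6155 of these. Without Lck, a choice made after the data were seen, the other 11 summed to 533 to 1164 in wildtype, against 1075 to 1229 in SFR KO libraries, so that the groups overlapped. Of the 12 T cell markers, 1 had a log2 difference below 0, and their median was 0.67, where that of all tested genes was -0.00. The groups did not overlap for 3 of them (Trac, Cd3e and Cd3d), all higher in SFR KO. Over all tested genes 9.78% had this pattern. Transcripts of the mitochondrial genome summed to 463562 to 660939 in wildtype, against 757380 to 761311 in SFR KO libraries. The groups did not overlap for 8 of the 10 tested, all higher in SFR KO, and 8 had an unadjusted p under 0.05. Limma called 2 of the 10, mt-Rnr1 and mt-Rnr2, both higher in SFR KO, where edgeR called 1 and DESeq2 3. The most abundant, mt-Co1, had a mean of 218938 in wildtype, against 319265 in SFR KO libraries (limma adjusted p = 0.0884). Of the other lists, limma called 4 of 12 light zone genes, all lower in SFR KO (Myc, Cd83, Egr1 and the deleted Slamf1). Among these 12, edgeR called 2 and DESeq2 5, and 5 had an unadjusted p under 0.05. Cd83 and Egr1 missed edgeR's threshold, each with an adjusted p = 0.0527. Of the dark zone, plasma cell, resting B cell, myeloid and red cell lists, 0 members passed limma's threshold. In those 5 lists of 8, 6, 8, 9 and 7 tested genes, 2, 3, 4, 0 and 0 had an unadjusted p under 0.05, edgeR called 0 in each, and DESeq2 called 1 dark zone and 1 plasma cell gene. Neither the germinal centre list nor the T cell list had a call by limma or edgeR. In these 2 lists, 2 and 6 of 12 genes each had an unadjusted p under 0.05, and DESeq2 called 1 gene in each. Over all tested genes 16.1% had an unadjusted limma p under 0.05, and limma called 0.465%, edgeR 0.221% and DESeq2 3.62%. Of the 8 resting B cell genes, 7 had a log2 difference below 0, with a median of -0.36. Among the SFR KO libraries, SFR KO 1 stood apart for the members: it had the lowest value of all 6 libraries for 6 of the 9 members tested, against 22.4% of all tested genes. In bulk RNA, fewer cells of a type and less RNA per cell cannot be told apart.

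Every kinase and STAT gene among the members had a slightly lower mean level in SFR KO libraries, and none passed the limma test over all genes. Of 9 members tested, 8 had a fitted difference below 0, and the median of the 9 was -0.13 on the log2 scale. Over all 13562 tested genes 50.7% were below 0 and the median was -0.00. The groups did not overlap for 3 members, Jak1, Stat5b and Stat6, all lower in SFR KO, where 11.9% of all tested genes had this pattern. The groups did not overlap in the other direction for 0 of the 9, where 9.78% of all tested genes did so. Limma called 0 of the 9 at an adjusted p under 0.05, where it called 0.465% of all genes. At an unadjusted p under 0.05 there were 4 members (Stat5b, Jak1, Stat6 and Socs3), where 16.1% of all genes reached it. On the recovered reads edgeR also called 0 members (0.221% of all genes), and DESeq2 called 2, Jak1 and Stat5b (3.62% of all genes). Limma with sample weights called the same 2 (4.65% of all genes), as does the authors' deposited table (4.8% of the genes with an adjusted p there). With 1 library left out limma called 0 members, where it called from 0.0811% of all genes without SFR KO 2 to 3.7% without SFR KO 1.

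**Figure D1:**
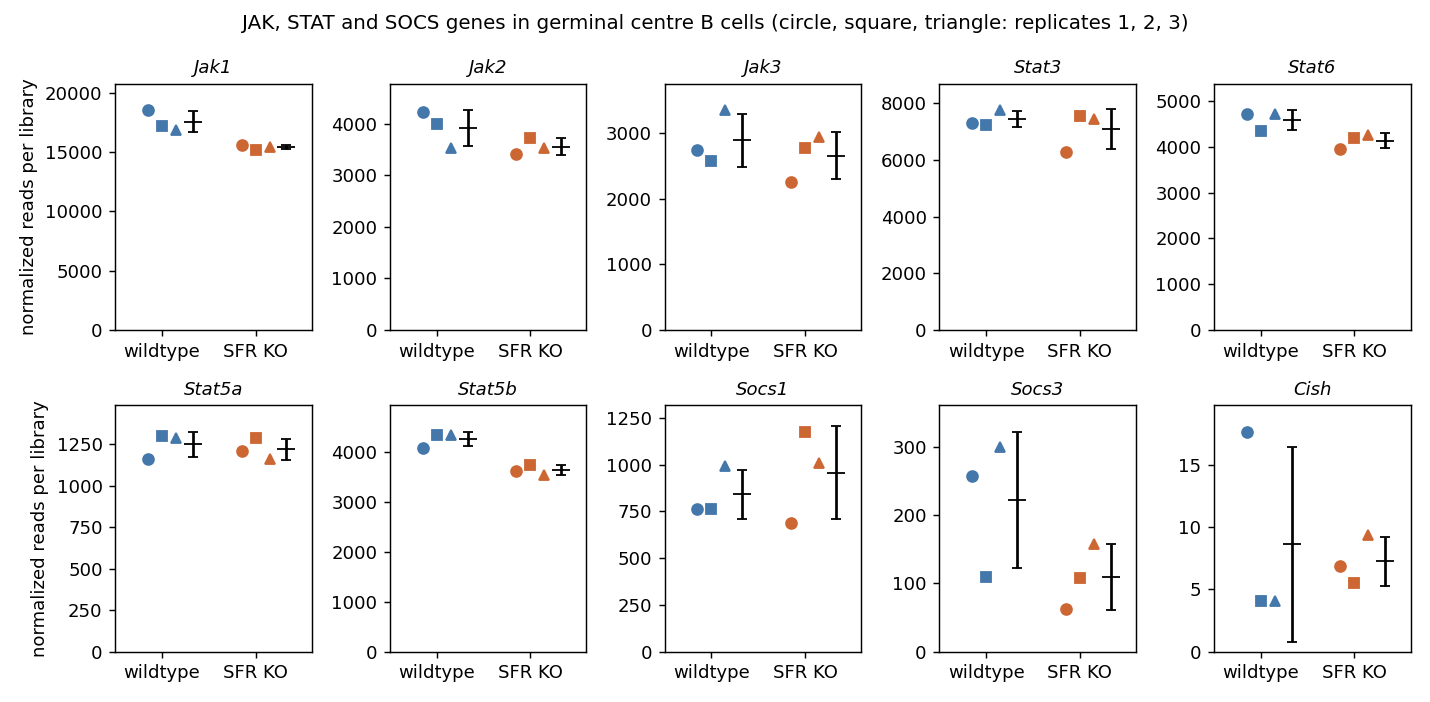
Normalized reads (vertical axis, from 0) of each of the 10 genes in 3 wildtype (blue) and 3 SFR KO (orange) libraries, with the mean ± SD beside each group. The groups are apart for Jak1, Stat5b and Stat6 and overlap for the other genes, and the SFR KO 1 circle is the lowest point for Jak2, Jak3, Stat3, Stat6, Socs1 and Socs3.

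Among the kinases, Jak1 serves nearly all of the receptors above and was the most abundant. Jak1 (chromosome 4, 101152367 to 101265282, minus strand) had 18527, 17200 and 16871 normalized reads in wildtype 1, 2 and 3, against 15564, 15180 and 15451 in SFR KO 1, 2 and 3. Every SFR KO library thus lay below every wildtype library, and the SFR KO values were close together, with a coefficient of variation of 1.28% against 5% in wildtype. The group means were 17533 ± 876.9 and 15398 ± 196.9 (SD, n = 3 each), a ratio of 0.878. The log2 difference was -0.19 ± 0.05 (SE; 95% interval -0.30 to -0.07), with a limma adjusted p = 0.132. DESeq2 gave an adjusted p = 0.0233, and the authors' deposited table gives a log2 fold change of -0.19 with an adjusted p of 0.0262.

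Jak2 (chromosome 19, 29251828 to 29313080), a kinase of the interferon gamma receptor and of the receptors for growth factors such as erythropoietin, had 4227, 3996 and 3535 normalized reads in wildtype, against 3416, 3729 and 3541 in SFR KO libraries. The groups overlapped, since wildtype 3 lay below SFR KO 2 and SFR KO 3. Its log2 difference was -0.13 ± 0.07 (interval -0.29 to 0.02; limma adjusted p = 0.397). Jak3 (chromosome 8, 71676296 to 71690575), the partner of the common gamma chain, had 2747, 2578 and 3358 in wildtype, against 2264, 2784 and 2940 in SFR KO libraries. Its log2 difference of -0.12 ± 0.12 (interval -0.38 to 0.14; adjusted p = 0.667) came to -0.01 without SFR KO 1 and likewise without wildtype 3, so that single libraries set it. Insl3 lies within the Jak3 gene on the same strand with overlapping exons, at a mean of 6.61 normalized reads.

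The 4 STAT genes differed in how far apart the groups lay. Stat5b (chromosome 11, 100780731 to 100850724), which with Stat5a relays interleukin 2 family signals, had 4084, 4339 and 4336 normalized reads in wildtype, against 3620, 3729 and 3536 in SFR KO libraries. All SFR KO values were below all wildtype values. The means were 4253 ± 146.2 and 3628 ± 96.9 (SD, n = 3 each), a ratio of 0.853, and the log2 difference was -0.23 ± 0.05 (interval -0.34 to -0.12; limma adjusted p = 0.0844). This was the smallest p among the members. DESeq2 gave an adjusted p = 0.00979, and the authors' deposited table has -0.23 with an adjusted p of 0.0124.

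Its duplicate Stat5a (chromosome 11, 100859351 to 100885169) had 1160, 1297 and 1288 normalized reads in wildtype, against 1207, 1285 and 1163 in SFR KO libraries. The groups lay on top of each other, with a log2 difference of -0.03 ± 0.07 (interval -0.19 to 0.13; limma adjusted p = 0.865). The log2 ratio of Stat5a to Stat5b within a library, which no scaling between libraries moves, was -1.81, -1.74 and -1.75 in wildtype and -1.58, -1.54 and -1.60 in SFR KO libraries. It was 0.19 higher in SFR KO libraries and the groups did not overlap. The two-sided exact permutation test gave p = 0.1, the smallest that 3 against 3 libraries allow, and an adjusted p = 0.5 over the 5 ratios examined.

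Stat6 (chromosome 10, 127642986 to 127660957), the STAT of interleukin 4, had 4713, 4335 and 4706 normalized reads in wildtype, against 3944, 4199 and 4249 in SFR KO libraries. The groups did not overlap, although wildtype 2 and SFR KO 3 were close. The log2 difference was -0.15 ± 0.06 (interval -0.27 to -0.03; limma adjusted p = 0.232; authors' deposited table -0.15 with an adjusted p of 0.196). Nab2 overlaps the end of Stat6 on the other strand, at a mean of 809 normalized reads. Stat3 (chromosome 11, 100885098 to 100939540), the STAT of interleukins 6, 10 and 21, had 7311, 7232 and 7763 in wildtype, against 6295, 7560 and 7432 in SFR KO libraries. SFR KO 1 was the lowest library and the other two lay within the wildtype range. The log2 difference of -0.07 ± 0.07 (interval -0.23 to 0.09; adjusted p = 0.682) became 0.01 without SFR KO 1. Stat3 and Stat5a end against each other and overlap by 72 bases on opposite strands. No source used here gives the strand setting of the counting, and reads in such overlaps are uncertain.

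**Figure D2:**
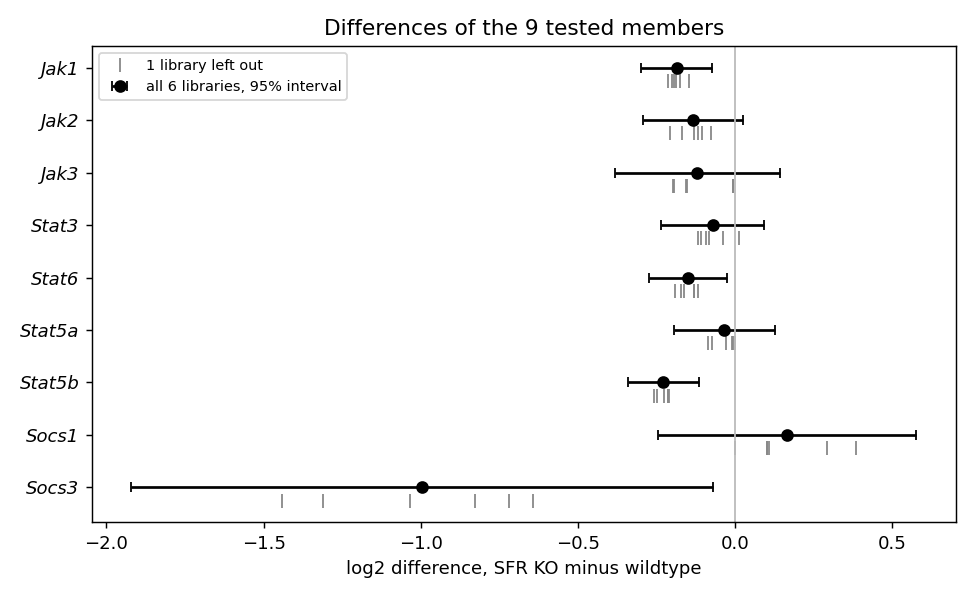
Log2 difference of SFR KO minus wildtype (horizontal axis) for the 9 tested genes, with the 95% interval of the fit over all 6 libraries (black) and the 6 values with 1 library left out (grey ticks). Intervals of Jak1, Stat5b, Stat6 and Socs3 lie below 0 before adjustment over genes, and the ticks of Socs3 spread from -1.44 to -0.64.

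The feedback genes had the widest ranges over the 6 libraries of all members. Socs3 (chromosome 11, 117966079 to 117970047), whose protein restrains receptors that use STAT3, had 258.3, 109.8 and 299.6 normalized reads in wildtype 1, 2 and 3. It had 62.08, 107.3 and 158.3 in SFR KO 1, 2 and 3. The mean in SFR KO was 0.491 times that in wildtype (109.2 ± 48.13 against 222.6 ± 99.85, SD, n = 3 each), but wildtype 2 lay below SFR KO 3, so the groups overlapped. The log2 difference was -0.996 ± 0.41 (interval -1.92 to -0.07), with a limma adjusted p = 0.275. It was -0.64 without SFR KO 1 and -1.44 without wildtype 2. The spread was well above counting error: reads ran from 63 in SFR KO 1 (exact Poisson 95% interval 48.4 to 80.6) to 295 in wildtype 3 (262 to 331). Within wildtype the coefficient of variation was 44.9%, where counting alone gives 6.64%. Counting intervals cover counting error only.

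Socs1 (chromosome 16, 10782240 to 10785536), an inhibitor of JAK catalysis induced by interferons and interleukin 4, had 763.7, 764.2 and 993.4 normalized reads in wildtype, against 687.8, 1176 and 1010 in SFR KO libraries. SFR KO 2 and 3 were the highest of the 6 libraries and SFR KO 1 the lowest. The log2 difference was 0.16 ± 0.18 (interval -0.25 to 0.58; limma adjusted p = 0.717). Leaving out SFR KO 1 gave 0.39, and leaving out SFR KO 2 gave -0.00087. The log2 ratio of Socs1 to Socs3 was 1.56, 2.79 and 1.73 in wildtype, against 3.45, 3.44 and 2.67 in SFR KO libraries. Wildtype 2 lay above SFR KO 3, and the two-sided exact permutation test gave p = 0.2 (adjusted p = 0.5).

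Cish (chromosome 9, 107296026 to 107302784), a target of STAT5 whose protein competes for its docking sites, was close to the limit of detection and under the minimum of the test. It had 19, 4 and 4 reads in wildtype, against 7, 5 and 10 in SFR KO libraries. Wildtype 1 held 19 of the 27 wildtype reads. The ratio of SFR KO to wildtype reads, scaled to library size, was 0.826 (exact binomial 95% interval 0.448 to 1.51), and 1.80 (0.771 to 4.67) without wildtype 1. These intervals pool the reads of each group and cover counting error only. Within wildtype the coefficient of variation was 91.0%, where counting alone gives 33.3%. No difference was detectable at this depth. The log2 ratio of Cish to Socs3 was -4.71 ± 1.07 in wildtype and -3.67 ± 0.58 in SFR KO libraries (SD, n = 3 each; exact permutation p = 0.3, adjusted p = 0.5).

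Wildtype 1, the highest library for Cish, was also the highest for red cell transcripts and for the summed myeloid markers (5309 normalized reads). The 7 red cell markers summed to 8887, 1736 and 1543 normalized reads in wildtype 1, 2 and 3, against 4435, 1663 and 3233 in SFR KO 1, 2 and 3. None of the 7 was at 0 in all libraries. Among the SFR KO libraries the red cell sum was highest in SFR KO 1 and Cish in SFR KO 3 (7 and 10 Cish reads). The gene with the pattern most like that of Cish over the 6 libraries, among 9718 protein-coding genes, was Sptb, the beta spectrin of red cells (Pearson's r 0.994). Sptb had 226.7, 26.67 and 26.41 normalized reads in wildtype, against 69.96, 40.51 and 88.04 in SFR KO libraries. With so many genes and 6 libraries high correlations arise readily, and they are given as a description. The part of red cell or myeloid RNA in the Cish values was not tested.

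**Figure D3:**
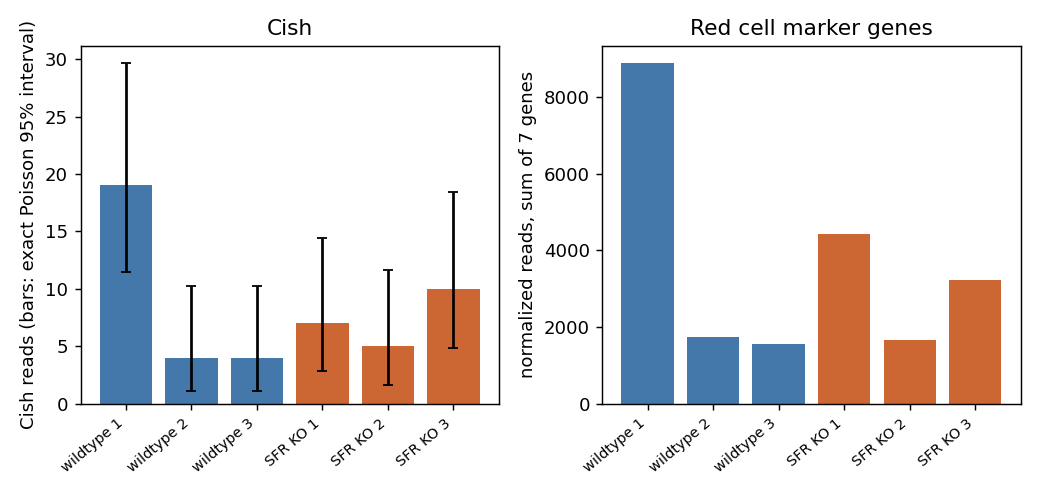
Left, Cish reads in each library with exact Poisson 95% intervals. Right, the summed normalized reads of 7 red cell genes in the same libraries (wildtype blue, SFR KO orange). Wildtype 1 is the highest library in both panels, with 19 Cish reads and a red cell sum of 8887.

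For the other members of widest range the same search gave genes of other kinds. Socs3 was most like Mogs, a glucosidase of glycoprotein processing (r 0.997), Dcaf1 (0.987) and Faap100 (0.985). Socs1 was most like Ttk, a kinase of the mitotic checkpoint (r 0.998), Zfp768 (0.985) and Psrc1, a spindle protein (0.975). Next to Cish after Sptb came Fam136a (0.984). Each r is over 6 libraries.

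Levels between genes were compared per kilobase of the longest annotated transcript. Jak1 stood first at 3094 to 3776 normalized reads per kb over the 6 libraries, above every value of the other members. Stat3 (1042 to 1285) and Stat6 (1045 to 1249) followed with overlapping ranges. Stat5b (678 to 832), Jak2 (679 to 840) and Jak3 (559 to 829) overlapped as well. Stat5a (293 to 328) and Socs1 (237 to 404) formed the next pair. Socs3 (24.3 to 117) and Cish (0.865 to 3.76) came last, each apart from its neighbours at this length. With the median transcript length, Socs3 stood at 127 to 611 and overlapped Socs1 (242 to 413) and Stat5a (322 to 360). Stat3 (8405 to 10365) and Stat6 (5651 to 6752) were then apart. The means ran from 3356 for Jak1 to 1.69 for Cish.

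**Figure D4:**
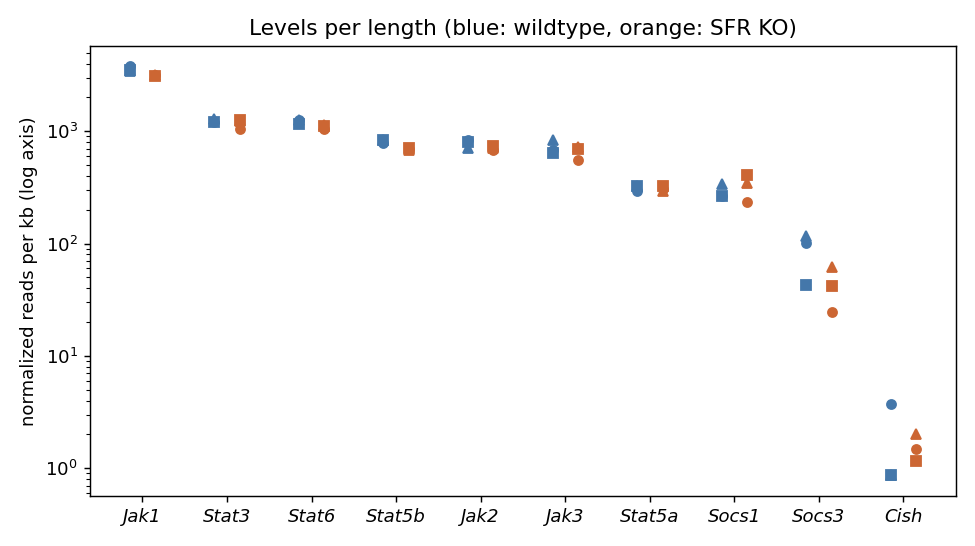
Normalized reads per kilobase of the longest transcript (log axis) for each gene in wildtype (blue) and SFR KO (orange) libraries, ordered by the mean over all 6; circle, square and triangle are replicates 1, 2 and 3. Jak1 is highest and Cish lowest, and neighbours such as Stat3 and Stat6, or Stat5b, Jak2 and Jak3, overlap.

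The makeup of each group of genes was also compared per kilobase of the longest transcript, and the shares depend on that length. With the median transcript length the mean per kb was 26136 for Jak1, 837 for Jak2 and 693 for Jak3. It was then 339 for Socs3 and 316 for Socs1. Jak1 gave 70.5 ± 1.16% of the summed JAK level in wildtype, against 69.7 ± 1.93% in SFR KO libraries (SD, n = 3 each). The log2 ratio of Jak1 to Jak2 differed by -0.05 between the genotypes (exact permutation p = 0.5, adjusted p = 0.625), and that of Jak1 to Jak3 by -0.07 (p = 1, adjusted p = 1). Among the STATs, Stat5b gave 22.8 ± 0.825% in wildtype, against 21.3 ± 1.09% in SFR KO libraries. Socs3 gave 27.5%, 14.0% and 25.5% of the summed SOCS level in wildtype 1, 2 and 3, against 9.27%, 9.39% and 15.1% in SFR KO 1, 2 and 3.

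The rest of the pathway was examined through 4 lists. Of the 9 other JAK, STAT and SOCS family genes, all tested, limma and edgeR called 0 and DESeq2 called 1. At an unadjusted p under 0.05 there were 2, and the median log2 difference was -0.02. Over all tested genes 16.1% reached that unadjusted p, and limma called 0.465%, edgeR 0.221% and DESeq2 3.62%. The groups did not overlap for 0 lower and 1 higher in SFR KO, against 11.9% and 9.78% of all tested genes. Socs4, a less studied SOCS gene, was at 0.23 ± 0.09 (adjusted p = 0.239), and at 0.31 with an adjusted p = 0.0422 without SFR KO 1. In that fit limma called 3.7% of all genes. With any other library left out the limma adjusted p of Socs4 was 0.249 to 0.516. After GC correction its log2 difference was 0.09 (limma adjusted p = 0.717). Tyk2, the remaining Janus kinase, was at -0.02 ± 0.06 (adjusted p = 0.887); it was chosen for its role after its value was seen.

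Of 22 cytokine receptor chains that bind JAKs, 21 were tested, with a median of -0.08. Limma and edgeR called 0 and DESeq2 called 1, against 0.465%, 0.221% and 3.62% of all tested genes. At an unadjusted p under 0.05 there were 4 of the 21, where 16.1% of all tested genes reached it. The groups did not overlap for 4 of the 21, all lower in SFR KO, where 21.7% of all tested genes did not overlap in either direction and 11.9% did so with SFR KO lower. Csf2rb, the shared beta chain of the receptors for interleukins 3 and 5, had 875.2, 738.5 and 708 normalized reads in wildtype, against 414.8, 437.9 and 631.3 in SFR KO libraries. Its log2 difference was -0.66 ± 0.16 (limma adjusted p = 0.0999; DESeq2 0.00307), and it passed limma's threshold without SFR KO 3 (-0.85, adjusted p = 0.0322). With any other library left out the limma adjusted p of Csf2rb was 0.0807 to 0.318, and after GC correction it was 0.159. Ifngr2, a chain of the interferon gamma receptor, was at -0.35 ± 0.10 (adjusted p = 0.154), and at -0.46 with an adjusted p = 0.0203 without SFR KO 1. With any other library left out its limma adjusted p was 0.255 to 0.406, and after GC correction it was 0.207. Csf2rb is also a gene of myeloid cells, whose 9 markers, none at 0 in all libraries, summed to 5309, 1448 and 1147 normalized reads in wildtype, against 2724, 901 and 1175 in SFR KO libraries. Their part in the Csf2rb values was not tested. The receptors for T cell help were chosen for their role after their values were seen. Il21r stood at 9125 ± 310.9 normalized reads in wildtype, against 8722 ± 212.5 in SFR KO libraries (log2 -0.06 ± 0.05, adjusted p = 0.553), and Il4ra at 7643 ± 479.1 and 7002 ± 524.6 (-0.13 ± 0.07, adjusted p = 0.4).

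Among 13 phosphatases, PIAS proteins and other restraints of the pathway, all tested, 1 gene fell and 0 rose, and the median was -0.08. Limma called 0.465% of all tested genes. At an unadjusted p under 0.05 there were 5 of the 13, where 16.1% of all tested genes reached it. EdgeR and DESeq2 called 1 each, against 0.221% and 3.62% of all tested genes. The groups did not overlap for 3 lower and 1 higher in SFR KO, against 11.9% and 9.78% of all tested genes. The gene that limma called was Sh2b3, an adaptor (also called LNK) that binds and restrains JAK2. Sh2b3 had 5677, 5607 and 5454 normalized reads in wildtype, against 4329, 4445 and 4575 in SFR KO libraries. The groups were far apart for their spread, and Sh2b3 fell to 0.797 times wildtype (log2 -0.33 ± 0.05, limma adjusted p = 0.0322; edgeR 0.0363; DESeq2 5.51e-06). It missed limma's threshold once the dependence on GC content was removed from every library (-0.26, adjusted p = 0.107). It also missed it when any 1 library other than SFR KO 1 was left out, in fits with fewer samples. The adjusted p was then 0.124 for wildtype 1, 0.113 for wildtype 2 and 0.0966 for wildtype 3, and it was 0.177 for SFR KO 2 and 0.0638 for SFR KO 3.

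Of 23 known STAT targets, 22 were tested, 1 fell and 0 rose, and the median was -0.11. At an unadjusted p under 0.05 there were 6 of the 22, against 16.1% of all tested genes. Limma, edgeR and DESeq2 called 1 each, against 0.465%, 0.221% and 3.62% of all tested genes. The groups did not overlap for 4 lower and 2 higher in SFR KO, against 11.9% and 9.78% of all tested genes. The gene that limma called was Myc, the growth regulator, which is a target of many pathways and also a member of the light zone list. It fell from 1715, 1654 and 1614 normalized reads in wildtype to 1076, 1140 and 1282 in SFR KO libraries, 0.701 times (log2 -0.51 ± 0.07, limma adjusted p = 0.0322). The call was lost after GC correction (-0.47, adjusted p = 0.0818) and when wildtype 1 (0.124), wildtype 2 (0.113), wildtype 3 (0.105) or SFR KO 2 (0.177) was left out. Named after their values were seen, Ccl22, a chemokine induced through STAT6, had 159.8, 214.4 and 93.45 normalized reads in wildtype, against 79.81, 45.98 and 11.24 in SFR KO libraries, which do not overlap (log2 -2.05 ± 0.60, adjusted p = 0.155). Pim1, a kinase induced by STAT3 and STAT5, had a log2 difference of 0.04 ± 0.11 (adjusted p = 0.903). The part of the mitochondrial and T cell lists, whose levels are given above, in the differences of the members and of these lists was not tested.

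**Figure D5:**
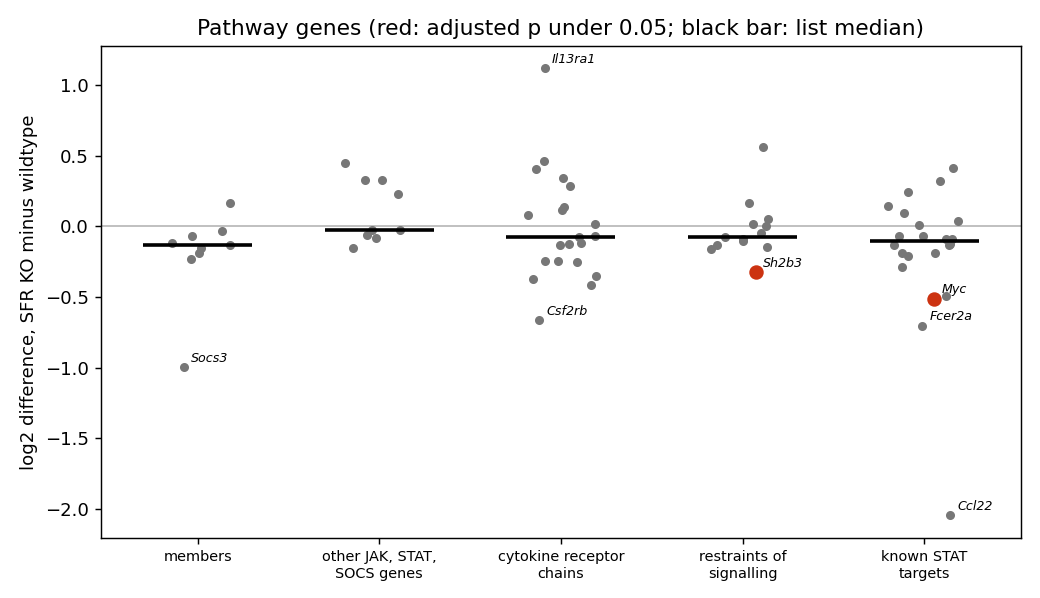
Log2 difference of SFR KO minus wildtype (vertical axis) for each tested gene of the members and of the 4 pathway lists; red points passed limma's threshold and black bars are list medians. The 2 red points are Sh2b3 at -0.33 and Myc at -0.51, and the medians lie between -0.13 and -0.02.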

How the data were processed

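RNA-seq of 6 libraries was analysed, grouped by the genotype in the labels and numbered in accession order. GRCm38, STAR 2.5, featureCounts 1.5 and DESeq2 1.14.1 are named per the submitters' processing notes, with no annotation, strand setting or filter. The authors deposited counts scaled to library size (a signal). Their deposited comparison holds log2 fold changes and errors, the test's statistic (a score) and p-values. All values were whole multiples of 1 read (100% within a tolerance of 1e-06), so reads were recovered.

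The test was limma 3.58.1 (R 4.3.3; lmFit and eBayes with the trend option), applied to log2(normalized count + 1). It covered 13562 genes whose mean reached 10, two-sided, Benjamini-Hochberg adjusted, threshold 0.05. Fold changes are on this scale, which understates those of low genes. EdgeR 4.0.16 and DESeq2 1.42.0 were run on recovered reads. Ratios used exact permutation tests (scipy 1.17.1). Lengths, GC content and coding sequences came from GENCODE M21, promoters from RefSeq. Alternatives were other pseudocounts, filters, scalings, sample weights, a robust prior, GC correction (natural spline, 4 degrees of freedom) and each library left out. Steps were tested on simulated data.

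The members and the 13 gene lists were chosen with earlier results of these data known. Named were all members, called genes of each pathway list (or the 2 with the smallest p), and, for the 3 members of widest range, the 3 most correlated protein-coding genes of known symbol with a mean of at least 50. Protein sequences were not used here; coding sequences were compared instead. Some genes that this rule selects are not reported here.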

Additional observations from a re-analysis of the deposited data

How the results depend on the processing

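No paired analysis was possible because the labels give no replicate numbers that the groups share. Of the 9 tested members, Jak1, Jak2, Jak3, Stat5b, Stat6 and Socs3 kept a value below 0 in all 17 alternatives. The others turned once each: Stat5a to 0.0329 after GC correction, Stat3 to 0.0123 without SFR KO 1 (lowest value -0.12, without SFR KO 2), and Socs1 to -0.00087 without SFR KO 2 (highest value 0.386, without SFR KO 1). The log2 ratio of Jak1 to Jak3 turned to 0.00695 without wildtype 1 and to 0.00698 without SFR KO 3, and was -0.205 without wildtype 3. The number of members called, 0 with limma, was 2 with DESeq2 and 2 with sample weights, Jak1 and Stat5b each time, and 0 in the fits that left out 1 library. The number of genes called over the 4 pathway lists, 2 with limma, was 4 with DESeq2, 8 with sample weights and 0 after GC correction, and 0 to 7 with 1 library left out. Over all genes, 63 were called with limma, 129 without a filter, 98 with a minimum mean of 50, 30 with edgeR, 491 with DESeq2, 630 with sample weights, 161 with a robust prior and 20 after GC correction. With 1 library left out the count ran from 11 to 501, the latter without SFR KO 1. The causes of these changes were not tested. With the median transcript length in place of the longest, Jak2 stood before Stat5b and Socs3 before Socs1. At 4 to 19 reads a library, Cish allows no statement on a change.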
